A study of Mus musculus with 6 samples.

Results

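The Zfp genes are the mouse genes named for zinc finger proteins, and they were taken here as every row of the deposited expression table whose symbol is Zfp followed by a digit. Zfp36, Zfp36l1 and Zfp36l2 were left out, since they encode RNA-binding proteins with a different kind of finger. This gave 279 Zfp genes of the 10539 listed protein-coding genes. The rule used symbols and no measured value, though it was set with earlier results of these data known.

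RNA sequencing was done on alveolar macrophages, the resident phagocytes of the airspace, from the lungs of C57BL/6 mice. In all 6 libraries the cells overexpressed C/EBPβ, a transcription factor of myeloid cells. The 3 libraries of the group labelled CEBPβ-A (written CEBPb-A here) came from such cells after treatment with an A20 adenovirus, A20 being the ubiquitin-editing enzyme that restrains NF-κB and is encoded by Tnfaip3. The 3 libraries of the group labelled CEBPβ (written CEBPb) came from such cells with no A20 virus named. The labels do not say which virus the CEBPb cells received, how C/EBPβ was overexpressed, or the age of the mice, and macrophages with normal C/EBPβ were not analysed here. The libraries are called replicates without mention of separate animals or cultures, so p-values reflect library-to-library spread alone, some or all of which could be technical.

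Most Zfp proteins are built from repeated classical zinc fingers, short loops in which a pair of cysteines and a pair of histidines hold a zinc ion, and each finger reads a few bases of DNA. Many also carry a KRAB box near the start of the protein, which recruits the corepressor TRIM28 (KAP1), the histone methyltransferase SETDB1 and HP1 proteins, and such proteins are best known for silencing retroelements and keeping imprints. KRAB zinc finger genes arose by repeated duplication, sit in clusters and have many near-identical relatives. Others of the family act outside DNA binding, in RNA handling, ribosome quality control or cell division.

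The whole series gave this frame. Expression is in FPKM, fragments scaled by the authors to gene length and library total, so the depth behind each value is unknown. On the first principal component of all tested genes CEBPb-A replicate 3 scored 25.7, and the remaining 5 libraries −11.7 to −0.095. Tnfaip3 was at 7.94, 15.5 and 7.32 FPKM in the libraries labelled CEBPb-A, against 8.76, 17.7 and 19.2 FPKM in CEBPb. The mouse Tnfaip3 gene was thus no higher after the named A20 virus (exact two-sided permutation p = 0.2, where the smallest possible is 0.1). Whether RNA from the virus would be counted at this gene was not tested. Cebpb was at 363, 378 and 492 FPKM in CEBPb-A and 420, 368 and 500 FPKM in CEBPb (exact permutation p = 0.7). Directions below are between libraries as labelled. All 10 alveolar macrophage markers were listed, with summed levels of 7326 to 8338 FPKM in CEBPb-A and 6891 to 7608 FPKM in CEBPb. Of the other cell types, T cell, B cell and endothelial markers were not listed. Of the neutrophil markers 3 of 7 were listed (Csf3r, Cxcr2 and S100a8), with sums of 298 to 317 FPKM in CEBPb-A and 214 to 263 FPKM in CEBPb. The means of these 3 genes ran from 3.35 to 264 FPKM, so 1 gene made up most of the sums. Of the epithelial markers 3 of 8 were listed (33.3 to 67.1 FPKM in CEBPb-A, 29.1 to 39.3 FPKM in CEBPb), and of the fibroblast markers 1 of 4 (0.551 to 0.657 FPKM in CEBPb-A, 0.684 to 1.00 FPKM in CEBPb). The part of these markers in the Zfp values was not tested.

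Sequence upstream of 3 Zfp genes is shown because these genes are among those with the smallest p in each direction, have a RefSeq start close to that of the deposited table and a window free of annotated exons, and because the cells overexpress a factor whose site can be looked for. Each run covers 200 bases of the RefSeq promoter window on GRCm38.p6, plus strand, ending 51 bases before the annotated start. They are chr16:3743849-3744048 for Zfp263, chr7:30121682-30121881 for Zfp382 and chr17:33628842-33629041 for Zfp414. Capitals mark matches to the C/EBP letters given next.
Zfp263: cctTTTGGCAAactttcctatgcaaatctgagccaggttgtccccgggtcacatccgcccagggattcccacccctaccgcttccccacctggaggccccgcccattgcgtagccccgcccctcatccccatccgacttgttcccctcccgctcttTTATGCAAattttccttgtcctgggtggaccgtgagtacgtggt
Zfp382: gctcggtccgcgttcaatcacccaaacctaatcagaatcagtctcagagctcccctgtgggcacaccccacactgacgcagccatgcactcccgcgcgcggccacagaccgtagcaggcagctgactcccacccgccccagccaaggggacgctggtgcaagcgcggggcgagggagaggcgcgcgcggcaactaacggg
Zfp414: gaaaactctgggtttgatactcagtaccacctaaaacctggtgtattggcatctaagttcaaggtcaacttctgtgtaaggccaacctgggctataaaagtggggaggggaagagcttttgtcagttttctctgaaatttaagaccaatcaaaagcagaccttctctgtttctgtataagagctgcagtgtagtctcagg

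The letters TTGCNNAA, searched on both strands over the 250 bases before the start, were found in 10 of 234 Zfp windows (4.27%), against 7.51% of the 8286 windows of all listed genes that had one. Zfp263 holds 2 of these matches and the windows printed for Zfp382 and Zfp414 hold none. An NF-κB decamer, searched the same way, was found in 2 Zfp windows (0.855%) against 0.338% of all windows. CCGGAAG, the core of an ETS site, was in 16.2% of Zfp windows and 15.5% of all, AAGATGGCG (YY1) in 0.855% and 1.29%, and an NRF1 site in 2.56% and 1.87%. The printed windows differ in composition, with 10 CpG in Zfp263, 19 in Zfp382 and 0 in Zfp414. Matches are descriptions of letters only.

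The Zfp genes were expressed at low levels. Their median of the mean over the 6 libraries was 2.12 FPKM (quartiles 1.13 and 3.79, range 0.389 to 40.0), against 6.52 FPKM for all listed genes. Of the 279 genes, 135 lay under 2 FPKM and 45 (16.1%) reached 5 FPKM, which 58.0% of all listed genes did. No Zfp gene was at 0 in any library. Their reference transcripts were longer, with a median of 3380 bases against 2853.5, and poorer in G and C, with 44.6% against 50.4%. The encoded proteins had a median of 579 residues against 448 and held a median of 10 fingers of classical spacing, up to 33. Fingers of that spacing were absent from the reference proteins of 9 genes, namely Zfp839, Zfp330, Zfp395, Zfp503, Zfp704, Zfp609, Zfp608, Zfp414 and Zfp703.

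A sequence pattern for the core of the KRAB box, searched in the first 200 residues, was found in 143 of the 279 genes. Those genes had a median level of 1.59 FPKM and at most 9.0 FPKM, with 9 of 143 at 5 FPKM or more. The 136 genes without the pattern had a median of 3.0 FPKM and reached 40.0 FPKM, with 36 at 5 FPKM or more. The pattern misses some true boxes, among them any that lie further into the protein. Copies close enough to share reads were commoner among the KRAB genes: 43 of 143 shared at least 10% of their 50-base words with another gene, against 11 of 136 without the pattern.

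By position, 69 Zfp genes (24.7%) lay on chromosome 7, which holds 7.77% of listed genes, 39 (14%) on chromosome 17 (5.41%) and 26 (9.32%) on chromosome 13 (3.85%). The largest run of neighbours, with gaps of at most 1 Mb, held 21 genes at chr17:21008941-23564226, 20 of them with the KRAB pattern. Its 16 tested genes had a median log2 fold change of −0.019. The run of 17 genes at chr13:67121660-67755228 had a median of −0.041 over 13 tested genes. The 12 genes at chr7:29768552-30169750 had a median of −0.0012 over 9 tested genes. Medians above 0 also occurred, among them 0.12 at chr7:6131491-7209998 and 0.13 at chr7:4915217-5053723, each over 4 tested genes. The 7 genes at chr4:145510759-147848366, all with the KRAB pattern and all tested, had a median of −0.16. Of these, Zfp990, Zfp979 and Zfp984 went from −0.28, −0.29 and −0.20 to 0.039, −0.13 and 0.12 without CEBPb-A replicate 3.

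The most abundant Zfp gene was Zfp385a, whose product (Hzf) is a zinc finger partner of p53 that also binds RNA. It was at 37.6, 45.2 and 39.5 FPKM in CEBPb-A and 36.8, 37.8 and 43.2 FPKM in CEBPb. The ranges overlapped, and the level was at the 90.1st percentile of listed genes. Zfp106, an RNA-binding protein whose loss causes motor neuron degeneration in mice, was at 27.2, 26 and 23.6 FPKM in CEBPb-A and 31.3, 29.1 and 26.8 FPKM in CEBPb. CEBPb-A replicate 1 lay above CEBPb replicate 3, so the groups overlapped. An antisense RNA, Gm26899, overlaps 26.1% of the exonic bases of Zfp106, and whether the counting used strand is not given in the sources used here, so its level is uncertain. Zfp710 was at 16.4, 19.6 and 22.2 FPKM in CEBPb-A and 15.9, 17.5 and 13.9 FPKM in CEBPb, with CEBPb replicate 2 above CEBPb-A replicate 1.

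Zfp445, a KRAB zinc finger protein that maintains imprints, was at 17.7, 16.6 and 12.6 FPKM in CEBPb-A and 18.7, 19.7 and 16.1 FPKM in CEBPb, with CEBPb-A replicate 3 the lowest. Zfp598, known from human cells as the ubiquitin ligase that marks collided ribosomes, was at 14.9, 16.3 and 16.8 FPKM in CEBPb-A and 16.1, 15.1 and 15.8 FPKM in CEBPb. Zfp706, which limits Klf4 in mouse embryonic stem cells, was at 15.7, 15.4 and 15.5 FPKM in CEBPb-A and 15.5, 17.2 and 14.1 FPKM in CEBPb. Both had overlapping groups, with log2 fold changes of 0.024 for Zfp598 and −0.0035 for Zfp706. At the other end, the lowest genes tested were Zfp438, Zfp119b and Zfp119a, all between 0.599 and 1.64 FPKM in every library and overlapping between groups.

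The comparison asks whether the Zfp genes differed between cells given the A20 virus and cells not labelled with it. It was made for the 223 Zfp genes with a mean of at least 1 FPKM. The other 56 fell below, the nearest being Zfp932, Zfp873 and Zfp867 at 0.9985, 0.958 and 0.951 FPKM. Fold changes are CEBPb-A minus CEBPb of log2(FPKM + 1), a scale on which changes of low genes are compressed. With limma and Benjamini-Hochberg adjustment over all 9617 tested genes, 0 Zfp genes passed an adjusted p of 0.05, where 0.052% of all genes did, and the smallest adjusted p of a Zfp gene was 0.588. At an unadjusted limma p under 0.05 there were 13 (5.83%), against 8.18% of all genes. Of the 13, 2 were higher in CEBPb-A (3.76% of all genes) and 11 lower (4.42% of all genes).

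As a group the Zfp genes leaned towards lower values in CEBPb-A by a small amount. Their median log2 fold change was −0.056 (quartiles −0.17 and 0.024), with 153 of 223 (68.6%) below 0. Over all tested genes the median was −0.013, with 53.4% below 0. The 3 libraries lay apart for 26 Zfp genes, of which 5 (2.24%) were higher in CEBPb-A, against 7.89% of all genes, and 21 (9.42%) lower, against 8.86% of all genes.

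That lean was smaller without CEBPb-A replicate 3. The median of the Zfp genes was then −0.013 with 120 (53.8%) below 0, beside 0.0011 and 49.6% over all tested genes. Leaving out CEBPb-A replicate 1 or 2 gave medians of −0.088 and −0.10, and leaving out CEBPb replicate 2 or 3 gave −0.032 and −0.12. After quantile normalization of all 6 libraries the median was −0.0075, with 116 of 223 below 0, beside 0.0056 over all tested genes. Without CEBPb-A replicate 3 and without that normalization, 11 Zfp genes (4.93%) had an unadjusted limma p under 0.05, against 5.34% of all genes. Of the 11, 3 were higher in CEBPb-A (2.38% of all genes) and 8 lower (2.96% of all genes). Groups lay apart without that replicate for 14 Zfp genes (6.28%) that were higher in CEBPb-A and 24 (10.8%) that were lower. The shares over all genes were 11.2% and 11.0%. The summed level of the 279 genes was 913, 930 and 821 FPKM in CEBPb-A and 959, 980 and 855 FPKM in CEBPb, so that replicate 3 was the lowest of each group.

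**Figure D1:**
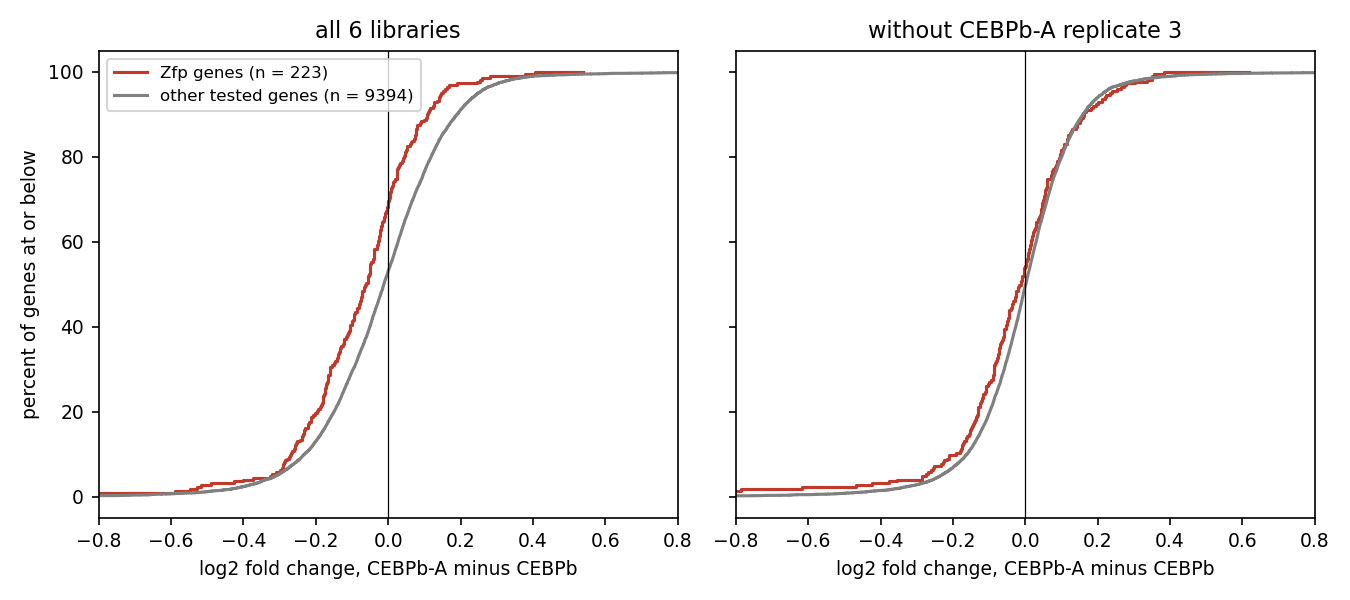
Cumulative share of genes (percent, vertical axis) against the log2 fold change, CEBPb-A minus CEBPb (horizontal axis, drawn without its most extreme values), for Zfp genes in red and other tested genes in grey, with all 6 libraries on the left and without CEBPb-A replicate 3 on the right. The red curve lies left of the grey one with all libraries (medians −0.056 and −0.012) and close to it without that replicate.

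Library by library, the deviation of each gene from its own mean over the 6 libraries gave the same picture. In order of replicate number, the Zfp median was 0.025, 0.032 and −0.15 in CEBPb-A and 0.068, 0.093 and −0.044 in CEBPb. For the other tested genes it lay between −0.031 and 0.015 in all 6 libraries. CEBPb-A replicate 3 held the lowest value of 108 Zfp genes (48.4%), against 35.5% of other genes, and CEBPb replicate 2 held the highest of 82 (36.8%), against 20.8% of other genes.

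The genes with the KRAB pattern had the wider spread of library medians. Their medians were 0.039, 0.039 and −0.23 in CEBPb-A and 0.096, 0.15 and −0.073 in CEBPb. The genes without it ran at 0.0019, 0.027 and −0.057 in CEBPb-A and 0.056, 0.060 and −0.0082 in CEBPb. Among the 103 tested KRAB genes the median log2 fold change was −0.078 with all libraries and 0.0072 without CEBPb-A replicate 3, and among the 120 others it was −0.051 and −0.027. The KRAB genes had a median GC content of 40.8% against 50.7% for the Zfp genes without the pattern. Other tested genes in the lowest of 4 equal bins of GC content had library medians of 0.041, 0.037 and −0.15 in CEBPb-A and 0.049, 0.12 and −0.075 in CEBPb. In those bins, from lowest to highest GC content, the Zfp median log2 fold changes were −0.074, −0.099, −0.073 and 0.0067. They covered 113, 37, 32 and 41 Zfp genes. The other tested genes stood at −0.053, −0.036, 0.0022 and 0.035. Without CEBPb-A replicate 3 the Zfp medians were 0.012, −0.044, −0.054 and −0.0081, and those of the other genes 0.0085, −0.0086, 0.00058 and 0.0042. The part of base composition in the Zfp values was not tested.

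**Figure D2:**
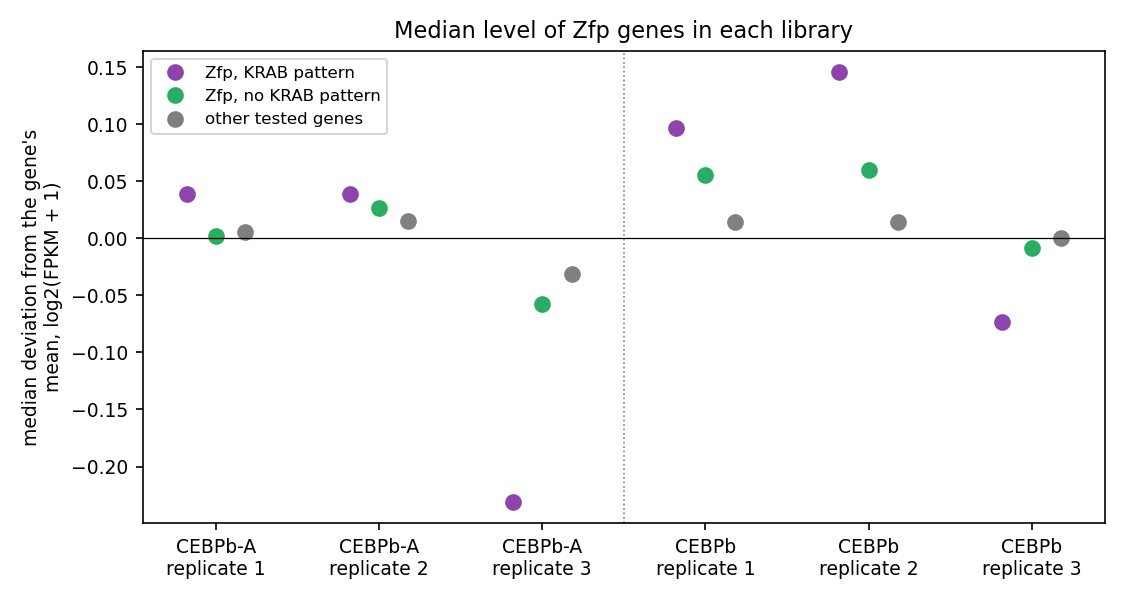
Median deviation from the gene's mean, log2(FPKM + 1), in each library (CEBPb-A left, CEBPb right), for Zfp genes with the KRAB pattern, Zfp genes without it and other tested genes. The KRAB genes are lowest in CEBPb-A replicate 3, at −0.23, and highest in CEBPb replicate 2, at 0.15.

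Transcript length moved with the fold change in the Zfp genes and in the rest of the table. In 4 equal bins of length, from shortest to longest, the Zfp medians were 0.019, −0.022, −0.075 and −0.12, over 20, 58, 78 and 67 genes. The other genes stood at 0.11, 0.021, −0.028 and −0.13. Among the longest bin, 86.6% of Zfp genes and 84.2% of other genes were below 0.

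Without CEBPb-A replicate 3 the Zfp medians were 0.0050, 0.014, −0.023 and −0.053, and those of the other genes 0.062, 0.016, −0.0058 and −0.055. In the longest bin 58.2% of Zfp genes and 71.1% of other genes were then below 0. Spearman's rho of length with fold change was −0.33 over Zfp genes and −0.53 over other genes, and −0.20 and −0.33 without that replicate. These are descriptions across genes, which share the libraries and are not independent. After the trend with transcript length was removed from each library, the Zfp median was −0.020, with 128 of 223 below 0, beside 0.0032 over all genes. The 45 Zfp genes at 5 FPKM or more had a median of −0.0001, and other genes at that level 0.0076. At 2 to 5 FPKM the median was −0.098 over 99 Zfp genes (73.7% below 0) and −0.048 over other genes (62.4%). At 1 to 2 FPKM it was −0.051 over 79 Zfp genes (72.2%) and −0.043 over other genes (62.3%). Without CEBPb-A replicate 3 these were −0.037 and −0.018 at 2 to 5 FPKM, and 0.0018 and −0.015 at 1 to 2 FPKM.

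**Figure D3:**
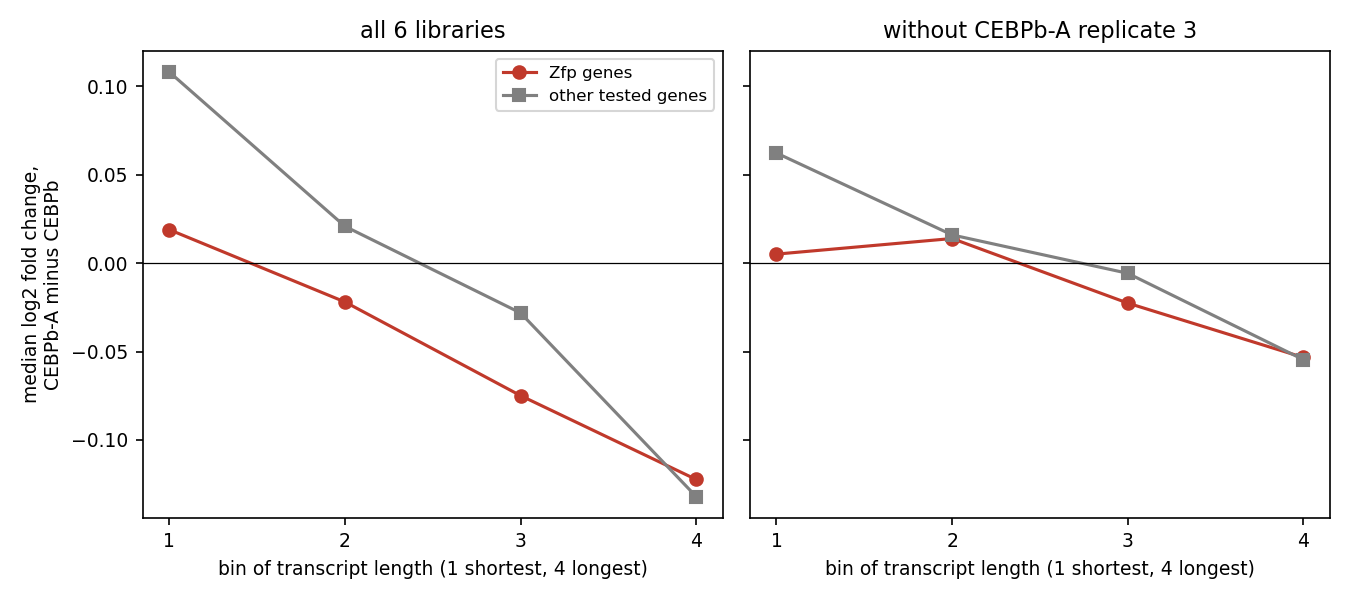
Median log2 fold change, CEBPb-A minus CEBPb, by bin of transcript length (1 shortest, 4 longest) for Zfp genes in red and other tested genes in grey, with all 6 libraries on the left and without CEBPb-A replicate 3 on the right. On the left both lines go down with length, ending at −0.12 for Zfp genes and −0.13 for other genes. On the right the Zfp line is at 0.0050 and 0.014 in the shorter bins and goes down to −0.053.

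Zfp422, the mouse counterpart of human ZNF22 and a Krox-related factor linked to tooth development, had the largest difference. It was at 0.658, 0.685 and 3.19 FPKM in CEBPb-A and 3.55, 3.80 and 3.68 FPKM in CEBPb. All CEBPb-A libraries lay below all CEBPb libraries, but replicate 3 was 4.75 times the mean of replicates 1 and 2 and close to CEBPb. With all libraries the log2 fold change was −1.04 (SE 0.33, limma adjusted p = 0.588).

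Without CEBPb-A replicate 3 it was −1.48 (SE 0.08, limma adjusted p = 0.00478), and Zfp422 was then the only Zfp gene that passed, with 9 of all genes (0.0936%). The CEBPb mean was 5.48-fold the mean of CEBPb-A replicates 1 and 2. The gene (ENSMUSG00000059878.12) lies on the minus strand at chr6:116624016-116628999, encodes 5 fingers and shares 7.52% of its words with another gene. Over the alternatives the adjusted p of limma ran from 0.00411 to 0.855.

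The gene with the smallest p was Zfp263, a SCAN-domain zinc finger factor (ENSMUSG00000022529.11, plus strand, chr16:3744093-3750790). It was at 5.93, 6.16 and 8.20 FPKM in CEBPb-A and 9.71, 10.8 and 9.01 FPKM in CEBPb. The groups did not overlap, and replicate 3 was the closest of CEBPb-A to CEBPb. The means were 6.76 ± 1.25 FPKM in CEBPb-A and 9.83 ± 0.893 FPKM in CEBPb (SD over 3 libraries; limma log2 fold change −0.49, SE 0.13, adjusted p = 0.588), and without replicate 3 the log2 fold change was −0.62 (adjusted p = 0.209).

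Zfp382, a KRAB repressor whose human counterpart is described as a tumour suppressor, was at 1.37, 1.10 and 1.57 FPKM in CEBPb-A and 2.06, 2.43 and 1.80 FPKM in CEBPb. Zfp607a, a KRAB gene with 18 fingers, was at 1.93, 1.62 and 1.31 FPKM in CEBPb-A and 2.46, 2.48 and 2.20 FPKM in CEBPb. In both genes all CEBPb-A libraries lay below all CEBPb libraries, with log2 fold changes of −0.40 and −0.37 that did not pass (adjusted p = 0.588 for both, by limma). Zfp113 and Zfp516, a factor of brown fat that activates Ucp1, were also apart, at 0.968 to 1.07 FPKM in CEBPb-A and 1.28 to 1.49 FPKM in CEBPb for Zfp113, and 2.64 to 3.63 FPKM in CEBPb-A and 3.997 to 4.64 FPKM in CEBPb for Zfp516.

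Zfp955a and Zfp955b are neighbours on chromosome 17 with 51.8% and 31.6% of their words shared, so how reads were divided between them is uncertain. Zfp955a was at 4.40, 3.44 and 2.47 FPKM in CEBPb-A and 7.24, 5.67 and 4.15 FPKM in CEBPb, with overlap. Zfp955b was at 2.35, 1.80 and 1.24 FPKM in CEBPb-A and 2.84, 2.94 and 2.36 FPKM in CEBPb, where the highest CEBPb-A library lay just below the lowest of CEBPb.

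In the other direction, Zfp414 was at 10.4, 9.996 and 11.5 FPKM in CEBPb-A and 8.87, 8.70 and 8.64 FPKM in CEBPb (log2 fold change 0.25, SE 0.08, limma adjusted p = 0.588). The groups did not overlap, though 25% of its words are shared with the overlapping gene Gm20507. Zfp768, linked in human cells to RAS signalling, was at 6.95, 7.36 and 6.81 FPKM in CEBPb-A and 5.43, 5.63 and 6.32 FPKM in CEBPb, again apart (log2 fold change 0.24). Zfp62 had the largest positive value, 0.54, from 5.12, 3.70 and 3.54 FPKM in CEBPb-A and 2.01, 1.73 and 4.19 FPKM in CEBPb, and there CEBPb replicate 3 lay among the CEBPb-A libraries.

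Zfp277, a Polycomb-linked factor of the Ink4a-Arf locus in mouse cells, Zfp954 and Zfp825 were apart as well, with log2 fold changes of 0.15, 0.15 and 0.41. Zfp277 was at 1.99, 1.86 and 1.93 FPKM in CEBPb-A and 1.51, 1.82 and 1.58 FPKM in CEBPb. Zfp954 was at 4.51, 4.27 and 4.73 FPKM in CEBPb-A and 3.88, 4.23 and 3.82 FPKM in CEBPb. In both genes the highest CEBPb library lay just below the lowest of CEBPb-A. Zfp825, which shares 28.7% of its words with other genes and is uncertain for that reason, had 1.73 FPKM in CEBPb replicate 3 beside 3.84 and 3.57 FPKM in the other CEBPb libraries, and its log2 fold change was 0.15 without that library. Zfp524, likewise uncertain with 46.0% of its words shared, had 3.16 FPKM in CEBPb replicate 1 and 6.66 to 7.88 FPKM in the other 5 libraries, and its log2 fold change was 0.38 with that library and 0.050 without it. None of these genes passed the test.

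**Figure D4:**
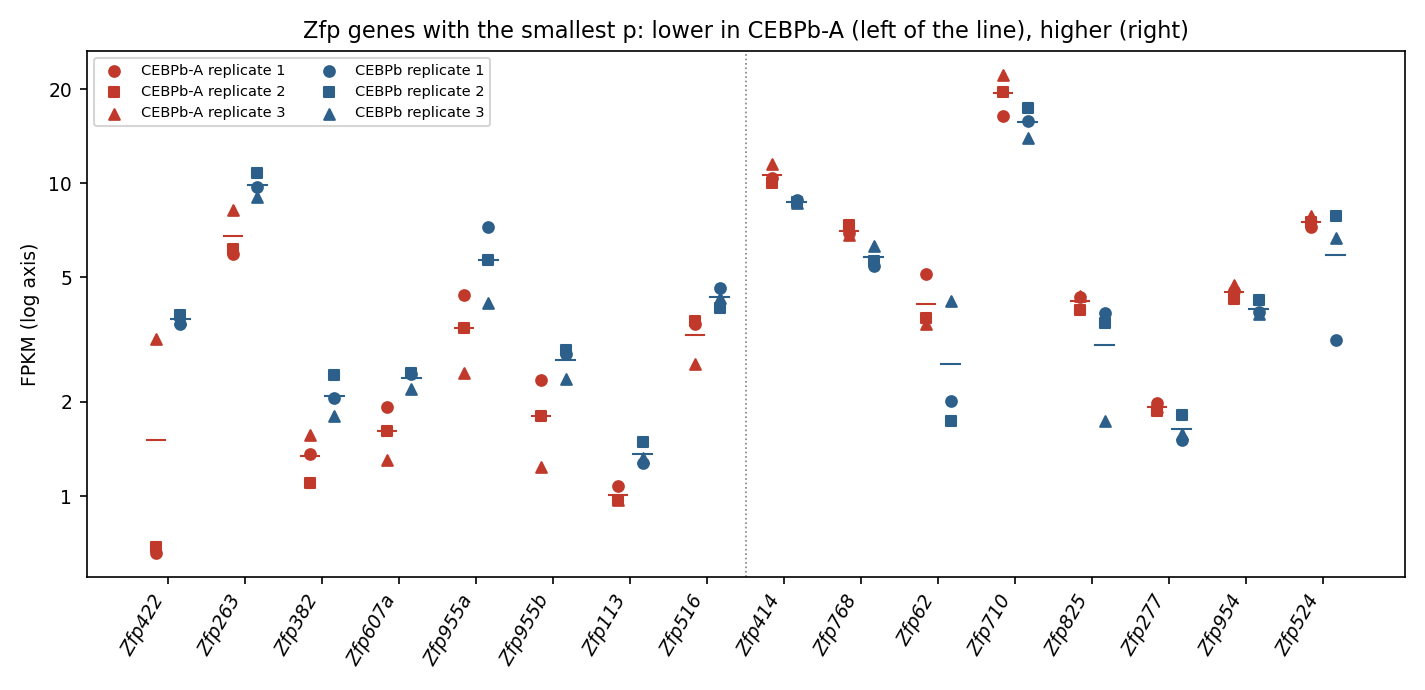
FPKM (log axis) of the 8 Zfp genes with the smallest p in each direction, lower in CEBPb-A left of the dotted line and higher right of it, with CEBPb-A in red and CEBPb in blue, a marker for each replicate and a bar at the group mean. Zfp422 shows CEBPb-A replicates 1 and 2 at 0.658 and 0.685 and replicate 3 at 3.19, near the CEBPb libraries.

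Single libraries decided several other values. The highest library was more than 3 times the lowest in 11 of 223 Zfp genes (4.93%) and in 2.33% of all tested genes. Among genes under 5 FPKM the shares were 5.06% and 4.17%. Zfp260, a zinc finger factor of heart muscle, was at 0.972, 0.814 and 3.84 FPKM in CEBPb-A and 2.99, 1.64 and 0.406 FPKM in CEBPb, and its log2 fold change went from 0.075 with all libraries to −0.38 without CEBPb-A replicate 3. Zfp46 was at 0.407, 0.483 and 2.27 FPKM in CEBPb-A and 1.73, 2.27 and 1.25 FPKM in CEBPb.

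Like Zfp422, Zfp46 was low in CEBPb-A replicates 1 and 2 and not in replicate 3 (log2 fold change −0.52 with all libraries and −0.91 without it, limma adjusted p = 0.289). Zfp180 was at 1.35 FPKM in CEBPb-A replicate 1 alone and at 5.42 to 6.19 FPKM in the other 5 libraries. Zfp990 went the other way, at 2.41, 3.46 and 1.01 FPKM in CEBPb-A and 3.10, 4.22 and 1.55 FPKM in CEBPb, where replicate 3 was the lowest of each group (log2 fold change −0.28, and 0.039 without CEBPb-A replicate 3).

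**Figure D5:**
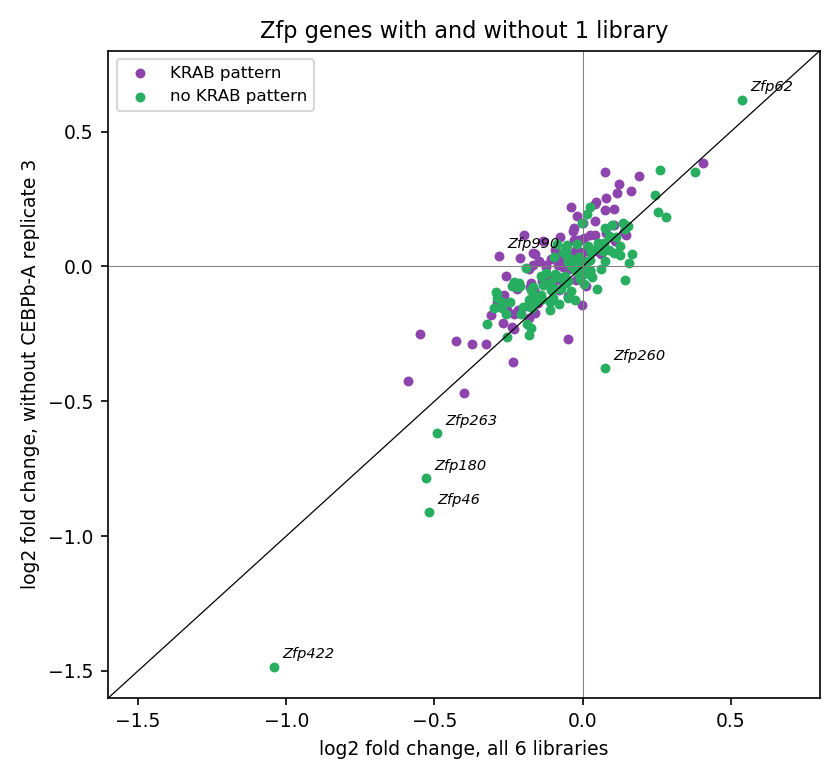
Log2 fold change of each tested Zfp gene, CEBPb-A minus CEBPb, with all 6 libraries (horizontal axis) and without CEBPb-A replicate 3 (vertical axis), with KRAB-pattern genes in purple, the others in green and a line of equality. Zfp422 at −1.04 and −1.48 and Zfp46 at −0.52 and −0.91 lie below the line, and Zfp990 lies above it.

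A further 10 Zfp genes were picked by hand for a well-described role, after values had been seen. Of these, 0 had groups that lay apart, where 7.89% of all tested genes lay apart and higher in CEBPb-A and 8.86% apart and lower. With so few genes that count is near the background. Genes given a role above, such as Zfp516 and Zfp277, lay apart and are outside the 10. The count therefore does not speak for Zfp genes with known roles. The log2 fold changes of the 10 ran from −0.24 to 0.088 with a smallest limma adjusted p of 0.602. Zfp91, a ubiquitin ligase of the noncanonical NF-κB pathway, was at 12.7, 13.7 and 12.02 FPKM in CEBPb-A and 13.6, 14.6 and 10.9 FPKM in CEBPb. Zfp809, which silences retroviral DNA, was at 5.003, 5.24 and 2.70 FPKM in CEBPb-A and 5.82, 5.57 and 3.81 FPKM in CEBPb, with replicate 3 the lowest of each group. The others were Zfp207 (spindle assembly), Zfp217 (a CoREST partner), Zfp638 (a partner of the HUSH silencing complex), Zfp451 (a SUMO ligase), Zfp568 (a repressor of Igf2), Zfp143, Zfp281 and Zfp622.

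The corepressors through which KRAB proteins act were described in the same way. Of 20 corepressor genes tested, 0 passed the limma test (0.052% of all genes) and 1, Cbx1, had an unadjusted p under 0.05 (8.18% of all genes). The median log2 fold change was −0.10 with 15 of 20 below 0, where 53.4% of all genes were. Without CEBPb-A replicate 3 it was −0.0084 with 11 below 0, where 49.6% of all genes were. The corepressor transcripts had a median length of 4418.5 bases, and the longest of the 4 length bins began at 4336.75 bases. Of the tested genes other than Zfp in that bin, 84.2% were below 0 (median −0.13), and 71.1% without CEBPb-A replicate 3. Other corepressor genes are shorter, so those shares do not describe the whole list. Cbx1, at 1251 bases, falls in the shortest bin (up to 1808 bases), where 24.0% of other genes were below 0. Its log2 fold change was −0.35, and −0.45 with the length trend removed. The part of length in the corepressor values was not tested. Trim28 was at 22.7, 25.1 and 26.9 FPKM in CEBPb-A and 24.0, 22.1 and 21.4 FPKM in CEBPb (log2 fold change 0.14). Setdb1 was at 6.51, 7.07 and 5.70 FPKM in CEBPb-A and 6.68, 6.68 and 6.52 FPKM in CEBPb. Both had overlapping groups.

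Cbx1, an HP1 protein, was at 5.203, 7.25 and 4.48 FPKM in CEBPb-A and 7.54, 7.23 and 7.32 FPKM in CEBPb. Cbx5, another, was at 2.88, 2.94 and 1.77 FPKM in CEBPb-A and 3.41, 3.35 and 3.36 FPKM in CEBPb, without overlap. Dnmt1, the maintenance DNA methyltransferase, had a log2 fold change of −0.16 and Chd4, a chromatin remodeller, of −0.14. Other zinc finger families had medians of −0.084 for 33 Zbtb genes, −0.14 for 14 Zscan and Zkscan genes and −0.060 for 10 Klf genes. Without CEBPb-A replicate 3 these were −0.020 for Zbtb, −0.059 for Zscan and Zkscan and −0.022 for Klf genes. Ribosomal protein genes, which are short, had a median of 0.19 over 95 genes, and 0.078 without CEBPb-A replicate 3. The 13 mitochondrially encoded genes, also short (median 784 bases), had a median of 0.17, and 0.21 without that replicate. The part of RNA quality in the Zfp values was not tested.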

How the data were processed

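RNA was taken with TRIzol and made into libraries with a stranded KAPA kit from 1 µg of total RNA, per the labels' protocols. The authors deposited 1 table of FPKM values for 6 libraries, per the file headers. Per the submitters' processing notes the build was GRCm38. The aligner, counting program, annotation release and use of strand were not given in the sources used here. Sequencing depth is unknown, since low values showed no whole-read steps (highest periodicity 0.229 to 0.283), so no counting interval is given.

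Genes with a mean of at least 1 FPKM were tested on log2(FPKM + 1) with limma 3.58.1 (R 4.3.3) with an intensity trend, two-sided, with Benjamini-Hochberg adjustment over all 9617 genes at 0.05. The fit was tried on simulated data with independent noise for each gene. That simulation held no outlying library and no length trend, so it does not bear on either. Tnfaip3 and Cebpb were compared by an exact permutation test. Lengths, GC content, fingers and KRAB patterns came from the coding transcript with the longest coding part in GENCODE M21, where 9603 of the listed genes had the same coordinates, and promoters from RefSeq. Of the Zfp genes, 234 had a promoter window.

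The named genes were Tnfaip3, Cebpb, Zfp genes past the threshold, the 8 with the smallest p each way, the 6 highest, the 3 lowest tested, the 4 moved most by leaving out CEBPb-A replicate 3, Trim28, Setdb1 and the 4 other corepressor genes with the smallest p. Other genes named were chosen after their values were seen. The members and lists were chosen with earlier results of these data known. The KRAB pattern was revised after seeing which symbols it matched (94 members in its first form, 147 in a looser one, 143 within the first 200 residues) and not by their expression. The length measure was changed after the first fits had been seen, from the median over coding transcripts, which was short for genes such as Zfp106, to the transcript above, and both are reported. Tried besides were no filter, a mean of at least 5 FPKM, pseudocounts of 0.1 and 0.5, upper-quartile, median-of-ratios and quantile scaling, limma without the trend, a replicate block, removal of the length trend and each library left out. Chosen after seeing the data were the median length trend, both length trends without CEBPb-A replicate 3, and the Zfp genes with few shared words.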

Additional observations from a re-analysis of the deposited data

How the results depend on the processing

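The Zfp median of −0.056 stayed below 0 under every alternative run, between −0.12 without CEBPb replicate 3 and −0.0001 at a mean of at least 5 FPKM, where 45 Zfp genes remained and 23 were below 0. The count below 0 was 120 to 169 with 1 library left out, 116 after quantile normalization (median −0.0075) and 115 with the length trend removed and without CEBPb-A replicate 3 (median −0.0044). With the trend of median transcript length removed, the first length measure tried, the median was −0.039 with 129 below 0, and with that of the transcript used here −0.020 with 128 below 0. Over the 179 Zfp genes with under 10% of words shared it was −0.060, with 125 below 0. The 3 forms of the KRAB pattern gave medians of −0.062, −0.076 and −0.078. Zfp genes without the pattern were at −0.056, −0.052 and −0.051 in the same order, so the first form left little difference. Over all genes 5 passed with limma, 0 at a mean of at least 5 FPKM, 2 after quantile normalization, 1 with the replicate block, 8 with the length trend removed, 8 and 9 with each length trend removed and without CEBPb-A replicate 3, and 1 to 9 with 1 library left out. Zfp genes passing were 0 under each alternative that kept all 6 libraries, and 0 to 1 with 1 library left out. With either length trend removed and without CEBPb-A replicate 3, 1 passed, Zfp422. Same-numbered libraries had correlated deviations of 0.0993, 0.247 and 0.259, each library correlating best with its own number, which is a hint from the data and no pairing in the labels. With the replicate block 0 Zfp genes passed and 25 (11.2%) had an unadjusted p under 0.05, where 13.4% of all genes did, against 13 Zfp genes (5.83%) and 8.18% of all genes without it.

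Of 647 alternatives for 35 named genes, 616 kept direction and side, 28 reversed and 3, all of Zfp422, newly passed. With the length trend removed the log2 fold change was 0.0027 for Chd4, 0.042 for Setdb1, 0.021 for Zfp106 and 0.071 for Zfp706. With the length trend removed and without CEBPb-A replicate 3 it was 0.062 for Setdb1, −0.36 for Zfp260, −0.0085 for Zfp598, 0.024 for Zfp706 and 0.038 for Zfp990. With the median length trend removed it was 0.068 for Setdb1 and 0.021 for Chd4, and also without CEBPb-A replicate 3 it was 0.072 for Setdb1, −0.35 for Zfp260 and 0.053 for Zfp990. Median-of-ratios scaling gave 0.016 for Zfp706. With 1 library left out, the ranges that crossed 0 were −0.20 to 0.051 for Cebpb, −0.10 to 0.029 for Setdb1, −0.38 to 0.42 for Zfp260, −0.023 to 0.12 for Zfp385a, −0.023 to 0.063 for Zfp438, −0.013 to 0.072 for Zfp598, −0.072 to 0.066 for Zfp706 and −0.57 to 0.039 for Zfp990. The causes were not tested. Precision rests on 3 libraries a group.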
